A study of Mus musculus with 8 samples.

Results

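Il10, Ebi3, Fgl2, Lgals1, Areg, Penk, Lif and Vegfa encode secreted mediators that Treg can use to suppress other immune cells or to support tissue. These 8 genes were taken by symbol from the 38215 genes listed in the deposited tables. No rule on measured values was used, but the choice was made with earlier results of these data known. FoxP3+ Treg had been sorted from the bone marrow (BM-Treg, 4 libraries) and the spleen (SP-Treg, 4 libraries) of naïve B6.FoxP3-GFP mice aged 12 weeks, in which a green fluorescent protein reports FoxP3 expression. All mice were of C57Bl/6 genotype with no treatment, and the sort was by the reporter, so each library is a bulk sample of all reporter-positive cells of a tissue. By their labels, batch 1 held BM-Treg replicates 1 to 3 (females), and batch 3 held BM-Treg replicate 4 and SP-Treg replicates 1 to 4 (males). The study's methods give female mice as the default, which differs from the labels of batch 3. As labelled, batch and sex cannot be told apart from each other, and within batch 3 the tissues were compared through 1 BM-Treg library. Since batch 1 held no SP-Treg, the tissue difference in a fit with batch as a term rests on the same BM-Treg library.

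Treg restrain other immune cells in part by what they release. IL-10 dampens antigen presenting cells, EBI3 is a chain shared by the heterodimeric cytokines IL-35 and IL-27, FGL2 is a fibrinogen-like protein that binds inhibitory Fc receptors, and galectin-1 (Lgals1) is a lectin that binds glycans on T cells. Amphiregulin (Areg) is an EGF receptor ligand made by Treg in injured tissue, LIF is an IL-6 family cytokine, Penk encodes the precursor of the enkephalin opioid peptides, and VEGF-A (Vegfa) drives the growth of vessels.

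BM-Treg held more Fgl2 transcript and less Penk and Lif transcript than SP-Treg, whereas Il10, Ebi3, Areg and Lgals1 did not pass the test. With batch as a term none of these 3 differences passed (adjusted p of 0.0727, 0.131 and 0.325 for Fgl2, Penk and Lif), while Lgals1 did (0.0155), and tissue and batch were largely confounded. A gene was called at a Benjamini-Hochberg (BH) adjusted p under 0.05 in edgeR's quasi-likelihood test, over the 13397 genes that passed edgeR's filter on low counts. Of the 8 genes, 7 passed this filter and 3 were called, 1 higher and 2 lower in BM-Treg. Across all tested genes 8.75% were called, 3.72% as higher and 5.02% as lower in BM-Treg. The libraries of the tissues did not overlap in the same 3 genes, against 16.2% of all genes tested. In bulk RNA of this kind, fewer cells that express a gene and less RNA per cell cannot be told apart.

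Levels are given as counts scaled to normalized library sizes (CPM). Log2 fold changes are BM-Treg over SP-Treg, positive where BM-Treg were higher. 

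**Figure D1:**
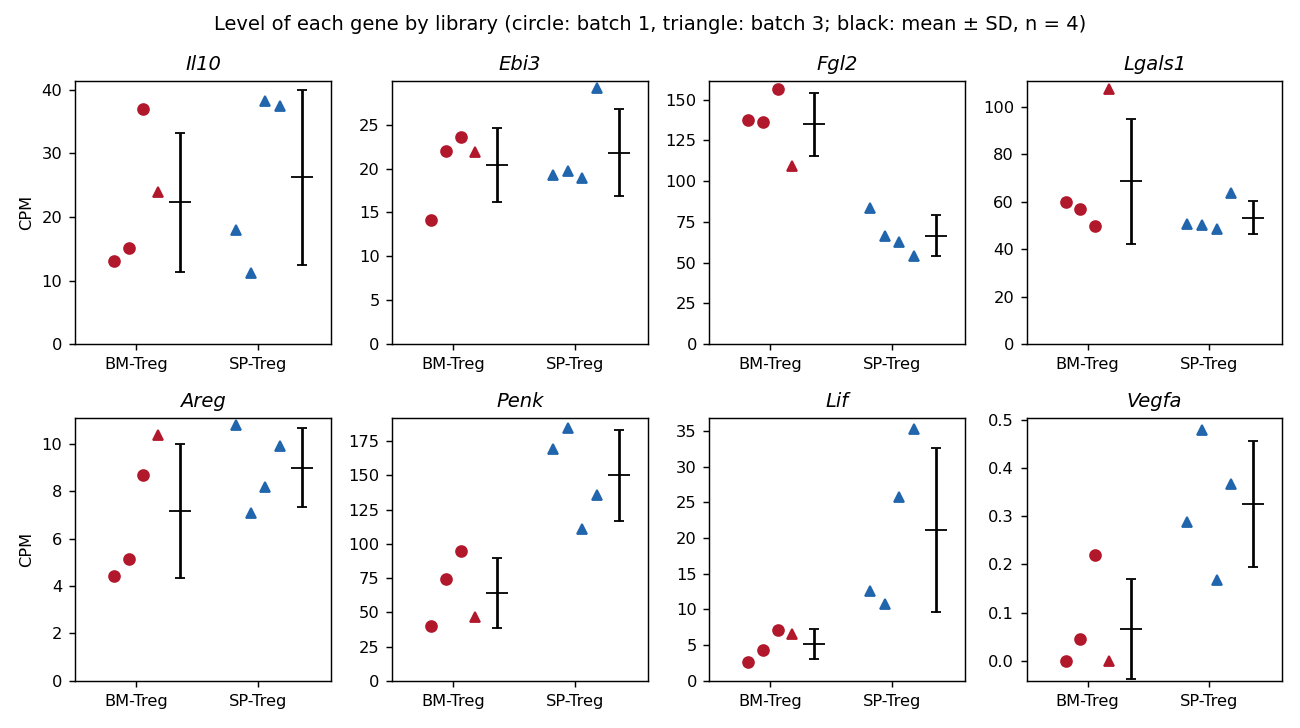
Level of each of the 8 genes in CPM (y axis, from 0 except where the error bar of Vegfa runs below it) in each BM-Treg (red) and SP-Treg (blue) library; circles are batch 1, triangles batch 3, and black bars mean ± SD (n = 4). Fgl2, Penk and Lif separate the tissues, and in Lgals1 BM-Treg replicate 4 stands at 107.6 CPM above all other libraries.

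Libraries held between 12427136 and 21921252 expected counts on genes, with mitochondrial ribosomal RNA at 17.7% to 30.1%. The 7 Treg markers, among them Foxp3 and Ikzf2, summed to 7458 to 8854 CPM for BM-Treg and 8161 to 8958 CPM for SP-Treg, so the labelled cell type was present in every library. SP-Treg replicate 2 stood apart with 8 B cell markers at 144.8 CPM, against 13.6 to 30.9 CPM in the other SP-Treg and 14.0 to 19.7 CPM in BM-Treg. Erythroid markers (7 genes) summed to 152.5, 380.7 and 230.8 CPM in SP-Treg replicates 2 to 4, to 2.01 CPM in SP-Treg replicate 1 and to 13.4 to 25.01 CPM in BM-Treg. In SP-Treg replicate 1 the B cell (13.6 CPM), erythroid and monocyte and macrophage (8.26 CPM) lists were all below their lowest BM-Treg value. The 2 CD8 T cell markers summed to 10.9 to 12.6 CPM in BM-Treg and to 13.2, 41.0, 22.7 and 16.6 CPM in SP-Treg replicates 1 to 4, without overlap. Cd8a was called lower in BM-Treg (log2 fold change -2.99, edgeR adjusted p = 0.0293). Cd8b1 was not called (-0.43, edgeR adjusted p = 0.210), and its libraries overlapped between the tissues. The other lists that were examined held at most 93.6 CPM in any library.

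Among the called genes, Fgl2 and Lif have a promoter window in the RefSeq table used (GRCm38.p6), and their 250 bases before the transcription start are shown because they carry the largest changes in each direction. Capitals mark matches, on either strand, to an AP-1 motif (TGANTCA), a CRE (TGACGTCA), a STAT motif (TTCNNNGAA) or a TATA box (TATAAA).
Fgl2 promoter, chr5:21372423-21372672, plus strand: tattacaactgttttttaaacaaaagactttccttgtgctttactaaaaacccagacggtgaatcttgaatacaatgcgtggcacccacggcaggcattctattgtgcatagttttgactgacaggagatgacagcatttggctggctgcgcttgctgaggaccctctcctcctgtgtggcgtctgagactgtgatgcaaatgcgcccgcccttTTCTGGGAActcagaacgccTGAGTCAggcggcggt
Lif promoter, chr11:4257318-4257567, plus strand: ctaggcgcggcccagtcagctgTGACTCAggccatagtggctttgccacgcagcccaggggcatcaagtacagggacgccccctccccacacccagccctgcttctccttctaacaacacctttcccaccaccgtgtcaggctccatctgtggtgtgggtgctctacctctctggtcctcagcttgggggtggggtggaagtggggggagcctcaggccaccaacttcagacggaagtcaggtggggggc
The Fgl2 window held a STAT match starting 36 bases and an AP-1 match starting 16 bases before the start, which do not overlap each other. In the Lif window the one match was an AP-1 motif starting 228 bases before the start. AP-1 matches were found in 6.75% of all 32851 promoter windows of this length, STAT matches in 7.02%, CRE matches in 1.55% and TATA matches in 12.4%. Areg and Ebi3 each have a window in the table and Vegfa has 2, of which that of Areg held a CRE starting 61 and a TATA box starting 31 bases before the start, and none held an AP-1 or STAT match. Il10, Penk and Lgals1 have no entry. RefSeq places the starts of Fgl2 and Lif slightly downstream of those in the deposited tables, so both windows end past the deposited starts. Distances are to the RefSeq starts. By the deposited start of Fgl2, its AP-1 match lies inside the gene and its STAT match spans the start. A match is a run of letters and not evidence of binding.

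Among the suppressive mediators, Fgl2 (ENSMUSG00000039899, chromosome 5, 21372642 to 21378374 in GRCm38) was 137.4, 136.1, 156.4 and 109.6 CPM in BM-Treg replicates 1 to 4, and 83.7, 66.1, 62.7 and 54.2 CPM in SP-Treg replicates 1 to 4. Each BM-Treg library lay above each SP-Treg library, and BM-Treg replicate 4, from the batch of the SP-Treg, was the lowest of its tissue. On average this was 134.9 ± 19.2 CPM against 66.7 ± 12.4 CPM (SD over 4 libraries per tissue), or 2.02-fold (log2 fold change 1.02, standard error (SE) 0.14, edgeR adjusted p = 0.000909). The call held without any single library, with an adjusted p of at most 0.00406. With batch as a term Fgl2 was at 0.72 on this scale (edgeR adjusted p = 0.0727), and in batch 3 alone at 0.73 (edgeR adjusted p = 0.157, with BM-Treg replicate 4 assumed to vary like the SP-Treg), so that the call was lost in both. FGL2 is also made by macrophages, whose 11 listed markers summed to 14.6 to 21.1 CPM for BM-Treg and to 8.26 to 30.9 CPM for SP-Treg, overlapping ranges. Of these markers Lyz2 was the highest, at 10.3 to 12.6 CPM in BM-Treg and 3.52 to 18.9 CPM in SP-Treg. Csf1r was at 3.34, 2.41, 1.23 and 0.752 CPM in BM-Treg replicates 1 to 4. In SP-Treg replicates 1 to 4 it was at 0.575, 2.39, 2.68 and 1.61 CPM. Cd68 lay between 1.79 and 5.94 CPM over all libraries. Fcgr1 and Cd300e were at 0 in all BM-Treg libraries and at 0.0836 CPM or less in SP-Treg. The part of macrophages in the Fgl2 result was not tested.

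Il10 (ENSMUSG00000016529, chromosome 1, 131019845 to 131024974) varied widely within each tissue. It was 13.0, 15.1, 37.0 and 24.0 CPM in BM-Treg replicates 1 to 4, and 17.9, 11.2, 38.3 and 37.4 CPM in SP-Treg replicates 1 to 4. The highest libraries of both tissues thus held over 30 CPM and the lowest under 15 CPM, and the ranges overlapped almost wholly. The log2 fold change was -0.23 with a 95% interval of -1.38 to 0.91 (edgeR adjusted p = 0.825).

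Ebi3 (ENSMUSG00000003206, chromosome 17, 55952623 to 55957021) was far more even between libraries. It was 14.1, 21.997, 23.6 and 21.9 CPM in BM-Treg replicates 1 to 4, and 19.2, 19.7, 19.0 and 29.2 CPM in SP-Treg replicates 1 to 4. Both tissues lay near 20 CPM, with BM-Treg replicate 1 as the lowest and SP-Treg replicate 4 as the highest library. The log2 fold change was -0.10 with a 95% interval of -0.49 to 0.30 (edgeR adjusted p = 0.805). Of the chains that pair with EBI3, Il12a (IL-35) averaged 0.204 CPM for BM-Treg and 0.0980 CPM for SP-Treg and did not pass the filter, and Il27 had 0 counts in every library.

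Lgals1 (ENSMUSG00000068220, chromosome 15, 78926725 to 78930465) was 59.9, 56.9, 49.9 and 107.6 CPM in BM-Treg replicates 1 to 4, and 50.8, 50.4, 48.7 and 63.5 CPM in SP-Treg replicates 1 to 4. The 3 BM-Treg libraries of batch 1 lay within the SP-Treg range, and BM-Treg replicate 4 stood well above all others. Over all libraries the log2 fold change was 0.36 with a 95% interval of -0.13 to 0.84 (edgeR adjusted p = 0.370). Without BM-Treg replicate 4 it was 0.06 (edgeR adjusted p = 0.835). In batch 3 alone it was 1.03 (edgeR adjusted p = 0.0454) and with batch as a term 1.01 (edgeR adjusted p = 0.0155), both of which pass the threshold and both of which rest on BM-Treg replicate 4.

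Among the mediators of tissue support, Penk (ENSMUSG00000045573, chromosome 4, 4133531 to 4138819, minus strand) was 40.1, 74.6, 94.97 and 46.4 CPM in BM-Treg replicates 1 to 4, and 169.1, 184.8, 110.5 and 136.1 CPM in SP-Treg replicates 1 to 4. The libraries did not overlap, although BM-Treg replicate 3 and SP-Treg replicate 3 came close to each other. On average this was 64.0 ± 25.5 CPM against 150.1 ± 33.3 CPM (SD over 4 libraries per tissue). Penk was thus 2.34-fold lower in BM-Treg, at -1.23 on the log2 scale (SE 0.29, edgeR adjusted p = 0.0362). Within batch 3 Penk was at -1.68 on this scale (edgeR adjusted p = 0.0494), and with batch as a term at -1.69 (edgeR adjusted p = 0.131). The call was lost without any 1 of 6 libraries, BM-Treg or SP-Treg replicates 1, 2 and 4, with an adjusted p of up to 0.103, and was kept without BM-Treg replicate 3 (0.0111) or SP-Treg replicate 3 (0.0387). Erythroid marker sums were 2.01, 152.5, 380.7 and 230.8 CPM in SP-Treg replicates 1 to 4. The B cell marker sums of these libraries were 13.6, 144.8, 30.9 and 26.9 CPM. The part of these cells in the Penk result was not tested.

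Lif (ENSMUSG00000034394, chromosome 11, 4257557 to 4272514) showed the largest difference of the 7 tested genes. It was 2.63, 4.35, 7.18 and 6.51 CPM in BM-Treg replicates 1 to 4, and 12.6, 10.8, 25.8 and 35.2 CPM in SP-Treg replicates 1 to 4. The highest BM-Treg library was below the lowest SP-Treg library, and the SP-Treg libraries differed among themselves, with replicates 3 and 4 above replicates 1 and 2. On average this was 5.17 ± 2.08 CPM against 21.1 ± 11.5 CPM (SD over 4 libraries per tissue), at -2.03 on the log2 scale (edgeR adjusted p = 0.0261) with a 95% interval of -3.06 to -1.01. The call was lost without BM-Treg replicate 1, 2 or 4 or SP-Treg replicate 3, with an adjusted p of up to 0.0900. With batch as a term (edgeR adjusted p = 0.325) and in batch 3 alone (edgeR adjusted p = 0.429) it was lost too, at log2 fold changes of -1.70 and -1.68. Erythroid marker sums were 2.01, 152.5, 380.7 and 230.8 CPM in SP-Treg replicates 1 to 4 and 13.4 to 25.01 CPM in BM-Treg. The part of these cells in the Lif result was not tested.

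Reads of Lif were split by the deposited estimates between 2 transcripts, Lif-201 (ENSMUST00000040750, from 4267095) and Lif-202 (ENSMUST00000066283, from 4257557), which begin in different first exons and share most of their sequence. Lif-201 held 47, 94, 94.2 and 78 expected counts in BM-Treg replicates 1 to 4, and 124.0, 84.1, 237.7 and 254.8 in SP-Treg replicates 1 to 4. The printed Lif window runs up to and just across the start of Lif-202. Lif-202 held 0, 0, 69.4 and 0 expected counts in BM-Treg and 52.0, 52.0, 69.3 and 225.2 in SP-Treg replicates 1 to 4. It was thus found in 1 of 4 BM-Treg libraries and 4 of 4 SP-Treg libraries, at 0% to 42.4% of the gene's counts in BM-Treg and 22.5% to 46.9% in SP-Treg. These ranges overlap, and estimates for transcripts that share exons are uncertain. Penk-201 took 99.6% and 99.5% of the Penk counts in BM-Treg and SP-Treg.

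**Figure D2:**
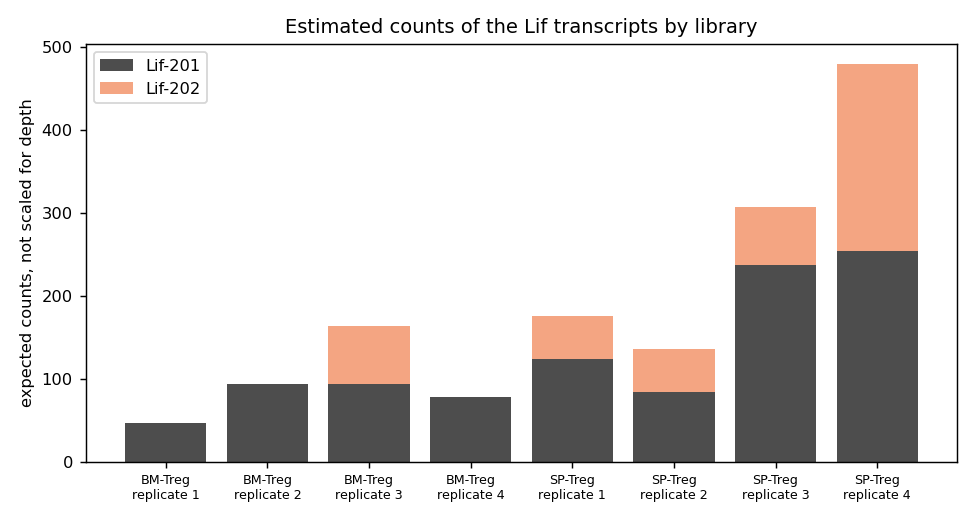
Expected counts, not scaled for depth, of Lif-201 (dark) and Lif-202 (light) in each library, stacked. Lif-202 has counts in BM-Treg replicate 3 and in every SP-Treg library, up to 225.2 in SP-Treg replicate 4.

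Areg (ENSMUSG00000029378, chromosome 5, 91139615 to 91148432) was low in both tissues. It was 4.43, 5.14, 8.67 and 10.4 CPM in BM-Treg replicates 1 to 4, and 10.8, 7.09, 8.19 and 9.91 CPM in SP-Treg replicates 1 to 4. BM-Treg replicates 1 and 2 lay below the SP-Treg range and the other two within it. The log2 fold change of Areg was -0.34 with a 95% interval of -0.91 to 0.22 (edgeR adjusted p = 0.477). It changed sign with batch as a term (0.20, edgeR adjusted p = 0.811) and in batch 3 alone (0.22, edgeR adjusted p = 0.781). No direction can be given for Areg.

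Vegfa (ENSMUSG00000023951, chromosome 17, 46016993 to 46032377, minus strand) was close to the detection limit. It had 0, 1, 5 and 0 expected counts in BM-Treg replicates 1 to 4 and 4, 6, 2 and 5 in SP-Treg replicates 1 to 4, 6 and 17 counts in all. A count of 0 allows up to 3 counts, or 0.164 CPM in BM-Treg replicate 1 and 0.251 CPM in BM-Treg replicate 4, for counting error only. A difference was not detectable at this depth (two-sided exact permutation test on CPM, n = 4 each, p = 0.0571, where the smallest possible p is 0.0286).

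**Figure D3:**
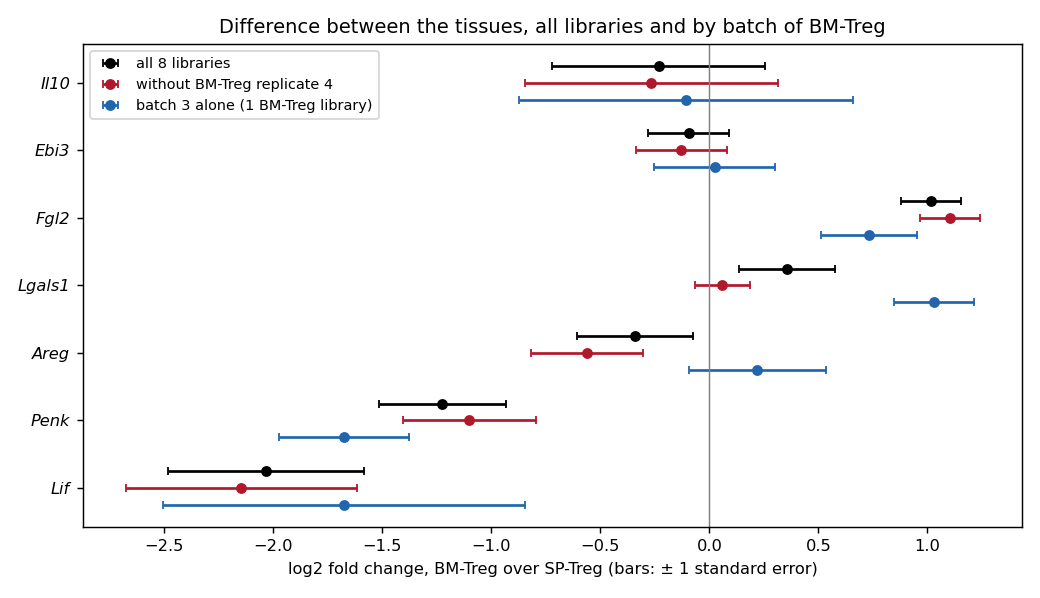
Log2 fold change of BM-Treg over SP-Treg (x axis, bars ± 1 standard error) for the 7 tested genes, over all 8 libraries (black), without BM-Treg replicate 4 (red) and in batch 3 alone (blue, 1 BM-Treg library against 4 SP-Treg libraries). Fgl2, Penk and Lif stay on their side of 0 in all 3 fits, Areg lies on the other side of 0 in batch 3 alone, and Lgals1 moves from 0.06 without BM-Treg replicate 4 to 1.03 in batch 3 alone.

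To set levels of different genes side by side, FPKM values were used, in which counts are divided by transcript length and library depth. In SP-Treg, Penk was first at 108.1 ± 27.3 FPKM and Lgals1 second at 72.1 ± 10.1 FPKM (SD, n = 4 each), with overlapping libraries. Il10 at 20.6 ± 10.2, Ebi3 at 19.4 ± 4.38 and Fgl2 at 17.7 ± 4.52 FPKM formed a middle group in SP-Treg with overlapping ranges. Areg (7.90 ± 1.94 FPKM) and Lif (5.43 ± 2.84 FPKM) overlapped each other, and Vegfa was last at 0.288 ± 0.195 FPKM. Penk thus exceeded 95.8% of the tested genes in SP-Treg.

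In BM-Treg the order was Lgals1 (95.9 ± 32.3 FPKM), Penk (48.3 ± 20.2), Fgl2 (37.4 ± 6.45), Ebi3 (19.1 ± 3.99), Il10 (18.4 ± 9.11), Areg (6.46 ± 2.36), Lif (1.44 ± 0.468) and Vegfa (0.0650 ± 0.111). In this order the ranges of Lgals1 and Penk, of Penk and Fgl2, and of Ebi3 and Il10 overlapped, and the other neighbours were separated in every library. Fgl2 stood clear of Ebi3 in BM-Treg, whereas in SP-Treg the libraries of these genes overlapped. The ranges of Fgl2 (28.45 to 43.88 FPKM) and Il10 (10.97 to 31.18 FPKM) overlapped in BM-Treg. By mean FPKM, Fgl2 exceeded 84.8% of the tested genes in BM-Treg, and Lif exceeded 14.7% in BM-Treg and 40.0% in SP-Treg.

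**Figure D4:**
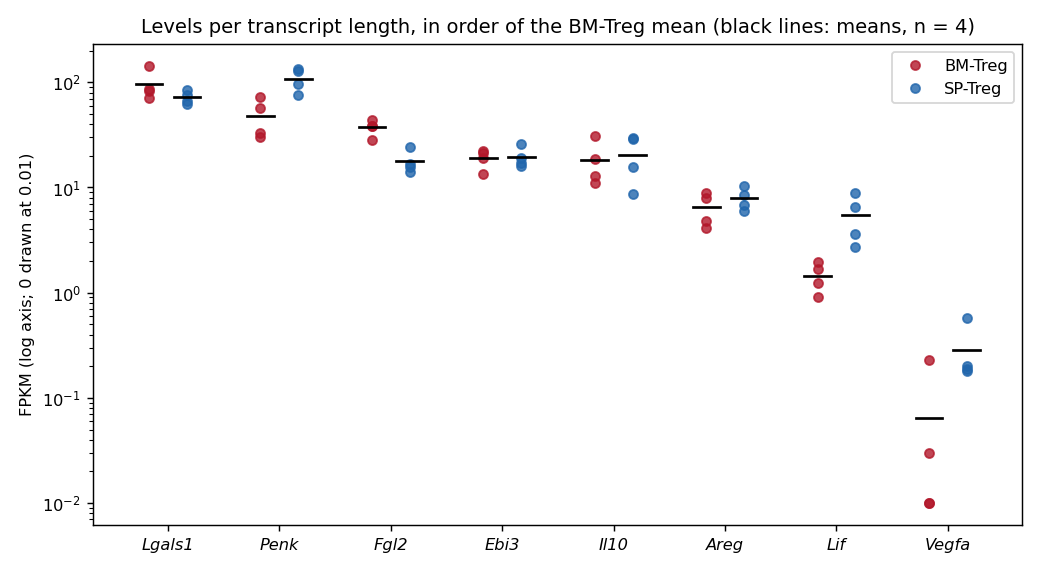
FPKM of each gene (log axis, values of 0 drawn at 0.01) in each BM-Treg (red) and SP-Treg (blue) library, in order of the BM-Treg mean (black lines are means, n = 4). Penk leads in SP-Treg at a mean of 108.1 FPKM, and Lgals1 leads in BM-Treg at 95.9 FPKM.

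To describe profiles, the 3 genes nearest to each called gene were those with the smallest root mean square difference of log2 CPM, each gene centred on its own mean, over 8 libraries and 8555 genes. For Fgl2 they were Ifngr1, a chain of the interferon gamma receptor (0.16), Il7r, the IL-7 receptor alpha chain (0.17), and Slc36a1, an amino acid transporter (0.18), against 0.55 for the spread of Fgl2 itself. For Penk they were Apol9a (0.11), Glt28d2 (0.18) and Cst7, which encodes cystatin F (0.18), against 0.76 for Penk. Lif had no gene as near, with Tnip3 at 0.39, Synpo at 0.44 and Fam162a at 0.51, against 1.16 for Lif. These distances describe profiles over the same libraries and carry no test.

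Genes around these mediators were read from 8 lists, chosen by function and described by their counts and medians beside the median of all tested genes, a log2 fold change of -0.01. The share called over all tested genes, to be read beside the count of each list, was 8.75%, with 3.72% higher and 5.02% lower in BM-Treg. Of the 23 genes named from these lists that passed the test, 8 kept their call with batch as a term. Among all tested genes, 200 of the 1172 called genes kept theirs. Of each list, up to 4 called genes of largest change were named. All 23 kept their direction in that fit, as did 1171 of the 1172 genes called among all tested genes. With batch as a term and in batch 3 alone, the tissue difference rests on BM-Treg replicate 4, so these fits are not separate checks.

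**Figure D5:**
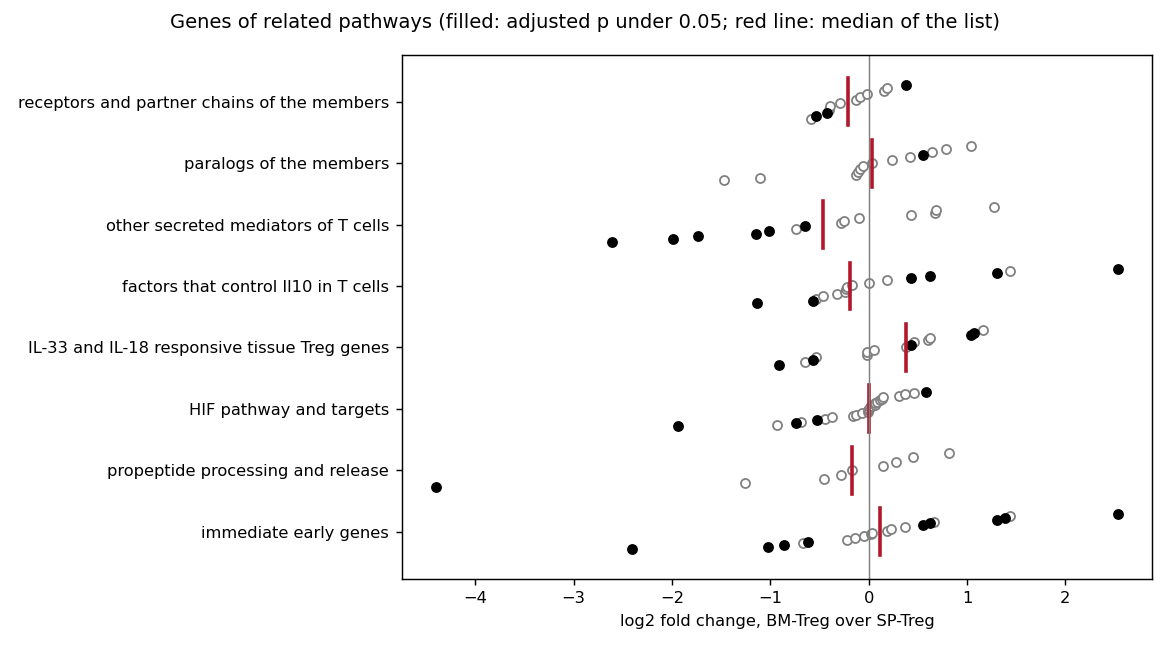
Log2 fold change of BM-Treg over SP-Treg (x axis) of each tested gene in 8 lists (rows); filled points have an edgeR adjusted p under 0.05, open points do not, and red lines are list medians. The 6 filled points of the other secreted mediators all lie below 0, and over all tested genes 8.75% were called.

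Of 21 receptors and partner chains, 12 were tested and 3 called, with a median log2 fold change of -0.21. Il10ra, the ligand-binding chain for IL-10, was higher in BM-Treg at 53.7 ± 2.31 against 41.2 ± 2.92 CPM (SD over 4 libraries per tissue; log2 fold change 0.38, edgeR adjusted p = 0.0344). Il6st, the gp130 chain that LIF signals through, was lower in BM-Treg at 283.2 ± 31.8 against 409.9 ± 43.2 CPM (-0.53, edgeR adjusted p = 0.00964), and so was Ptprc, the CD45 glycoprotein that galectin-1 can bind (-0.43, edgeR adjusted p = 0.0244). With batch as a term Il6st kept its call (-0.79, edgeR adjusted p = 0.0359), while Il10ra (0.35, 0.260) and Ptprc (-0.33, 0.340) lost it. Il10ra also lost its call without BM-Treg replicate 2 or 3 or SP-Treg replicate 2 or 3 (edgeR adjusted p of up to 0.0938), and Ptprc without BM-Treg replicate 1, 2 or 3 or SP-Treg replicate 1 or 4 (up to 0.0730). In batch 3 alone none of the 3 passed (edgeR adjusted p of 0.112 to 0.481). Lifr, the chain that binds LIF beside gp130, was at 0.743 and 1.02 CPM, and Egfr, the receptor of amphiregulin, at 0.179 CPM in BM-Treg and 0 in SP-Treg. Nrp1, a co-receptor of VEGF-A, was at 296.5 ± 25.7 and 300.4 ± 83.6 CPM.

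Of 33 paralogs, 13 were tested, with a median of 0.04, and Clcf1 was called. Clcf1, an IL-6 family cytokine like LIF, was higher in BM-Treg at 54.8 ± 6.38 against 37.2 ± 2.47 CPM, or 0.56 on the log2 scale (edgeR adjusted p = 0.00822, and 0.0280 with batch as a term). In batch 3 alone Clcf1 was at 0.79 (edgeR adjusted p = 0.0808). The most abundant paralogs beside it were galectins, Lgals9 with a log2 fold change of 0.42 (edgeR adjusted p = 0.0635, and 0.0194 to 0.0436 in 5 of 20 alternatives, where it passed) and Lgals8 with 0.23 (edgeR adjusted p = 0.173). Osm, of the same family, was at 9.44 and 10.1 CPM (edgeR adjusted p = 0.813).

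Of 36 other secreted mediators of T cells, 14 were tested and 6 called, all 6 lower in BM-Treg, with a median of -0.46. Il1rn, which encodes the IL-1 receptor antagonist, was 3.12, 4.63, 8.45 and 3.09 CPM in BM-Treg against 27.4, 26.9, 23.7 and 42.4 CPM in SP-Treg replicates 1 to 4. Each SP-Treg library was thus far above each BM-Treg library, at -2.61 on the log2 scale (SE 0.33, edgeR adjusted p = 0.00140). The call held with batch as a term (-3.28, edgeR adjusted p = 0.0318), and in batch 3 alone the log2 fold change was -3.26, both of which rest on BM-Treg replicate 4. Il1rn is also made by myeloid cells, whose marker sums (given with Fgl2) overlapped between the tissues, and their part in the Il1rn result was not tested. Tnf (-1.14, edgeR adjusted p = 0.00108) and Lta, lymphotoxin alpha (-1.74, edgeR adjusted p = 0.00343), were lower in BM-Treg in each library, and both lost their call with batch as a term (-0.79 and -1.98, adjusted p of 0.107 and 0.103) and in batch 3 alone (-0.78 and -1.96, 0.199 and 0.253). Gzma, encoding granzyme A, was 0.934 ± 0.648 and 3.84 ± 1.95 CPM (-1.99, edgeR adjusted p = 0.0216). Its call was lost with batch as a term (-3.18, adjusted p = 0.105), in batch 3 alone (-3.15, 0.127), and without BM-Treg replicate 1, 3 or 4 or SP-Treg replicate 2 (up to 0.0757). Gzma is itself 1 of the 6 ILC2 and NK cell markers, and the other 5 summed to 0.251 to 1.11 CPM for BM-Treg and to 1.22 to 6.53 CPM for SP-Treg. CD8 T cells also make the proteins of Tnf, Lta and Gzma, and the sum of their markers was higher in SP-Treg, with Cd8a called and Cd8b1 not called. The part of both cell types in these results was not tested. Tgfb1, the abundant suppressive cytokine of the list, was at 97.0 ± 13.3 and 103.7 ± 6.14 CPM (log2 fold change -0.10, edgeR adjusted p = 0.650).

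All 16 factors that control Il10 in T cells were tested and 6 called, 4 higher and 2 lower in BM-Treg, with a median of -0.19. The AP-1 subunits Fosb (2.54, edgeR adjusted p = 0.0452), Junb (1.31, edgeR adjusted p = 0.0216) and Jund (0.63, edgeR adjusted p = 0.0360) were higher in BM-Treg, and Irf4, which Treg need for effector functions, was lower (-1.14, edgeR adjusted p = 0.000392). With batch as a term Irf4 kept its call (0.0274), whereas Fosb (3.13, adjusted p = 0.105), Junb (1.32, 0.168) and Jund (0.92, 0.0709) lost theirs, with log2 fold changes no smaller than over all libraries. In batch 3 alone all 4 lay above the threshold (0.0808 to 0.276). Fosb was kept without SP-Treg replicate 1 or 3 and lost without any other single library (up to 0.102), Jund was kept without BM-Treg or SP-Treg replicate 1 and lost otherwise (up to 0.105), and Junb was lost without BM-Treg replicate 4 or SP-Treg replicate 3 (up to 0.0551). Maf and Prdm1, known inducers of Il10, had log2 fold changes of -0.32 (edgeR adjusted p = 0.133) and 0.0041 (edgeR adjusted p = 0.991).

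The immediate early list, which shares Fos, Fosb, Jun, Junb and Jund with the list above, had 20 of 22 genes tested and 9 called, 5 higher and 4 lower, with a median of 0.11. Dusp1, a phosphatase of MAP kinases, was higher in BM-Treg (1.38, edgeR adjusted p = 0.0236) and Egr2, a factor induced by T cell receptor signals, was lower (-2.41, edgeR adjusted p = 0.00131). Egr2 kept its call with batch as a term (0.0392) and in batch 3 alone (0.0164). Dusp1 lost its call in both (1.57 and 1.59, adjusted p of 0.125 and 0.159) and without BM-Treg replicate 3 or 4 or SP-Treg replicate 2 or 4 (up to 0.0656). Immediate early genes can also change while cells are isolated, and the part of sample handling in these values was not tested.

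All 15 genes of the IL-33 and IL-18 responsive tissue Treg list were tested and 5 called, 3 higher and 2 lower in BM-Treg, with a median of 0.37. This list shares Gata3, Batf and Nfil3 with the factors that control Il10, so the calls of Gata3 and Batf are counted in both. Klrg1, a marker of tissue Treg, was higher (1.07, edgeR adjusted p = 0.00105), as was Il1rl1, which encodes the IL-33 receptor ST2 (1.04, edgeR adjusted p = 0.00244). With batch as a term both kept their calls (0.000316 and 0.0318), and in batch 3 alone Klrg1 did (0.00663) and Il1rl1 did not (0.0809). Itgae, encoding the CD103 integrin chain, was lower (-0.91, edgeR adjusted p = 0.0276), as was Batf (-0.56, edgeR adjusted p = 0.0483). Both lost their calls with batch as a term (-0.84 and -0.59, adjusted p of 0.289 and 0.303) and in batch 3 alone (-0.83 and -0.57, 0.442 and 0.259). Itgae lost it too without any 1 BM-Treg library or SP-Treg replicate 2 (up to 0.0869), and Batf without BM-Treg or SP-Treg replicate 1, 2 or 4 (up to 0.131). Areg, which ST2 signals can induce in tissue Treg, was in the 2 highest Il1rl1 libraries (BM-Treg replicates 1 and 4, 74.8 and 77.2 CPM) at 4.43 and 10.4 CPM. These libraries are of different batches, and a link between Areg and Il1rl1 was not tested.

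Of 28 genes of the HIF pathway, to which Vegfa belongs as a target, 25 were tested and 4 called, 1 higher and 3 lower, with a median of -0.0012. Hexokinase 2 (Hk2) was lower in BM-Treg at 1.94 ± 0.595 against 7.56 ± 1.65 CPM (-1.93, edgeR adjusted p = 0.00116), and it kept its call with batch as a term (0.0165) and in batch 3 alone (0.0386). The glycolytic genes Pgk1 (-0.74, edgeR adjusted p = 0.0288) and Ldha (-0.52, edgeR adjusted p = 0.00460) were lower, and Pdk1, a kinase that limits pyruvate oxidation, was higher (0.58, edgeR adjusted p = 0.0190). These 3 lost their calls with batch as a term (-0.29, -0.40 and 0.39, adjusted p of 0.540, 0.197 and 0.356) and in batch 3 alone (-0.27, -0.39 and 0.41, 0.610, 0.343 and 0.446). Leaving out 1 library ended the call of Pgk1 for BM-Treg replicates 1, 2 and 3 and SP-Treg replicates 1 and 4 (up to 0.0895), and of Pdk1 for BM-Treg replicates 1 and 2 and SP-Treg replicate 2 (up to 0.0597).

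Of 12 genes of propeptide processing and release, 9 were tested and 1 called, with a median of -0.17. Tgm2, a transglutaminase that cross-links proteins and is listed for its part in TGF-β release, was 0.274, 0.278, 0.7002 and 0.251 CPM in BM-Treg against 3.02, 4.70, 8.70 and 17.3 CPM in SP-Treg replicates 1 to 4 (-4.40, edgeR adjusted p = 0.00172). Its call was lost with batch as a term (-5.03, edgeR adjusted p = 0.0956) and in batch 3 alone (-5.00). Both values rest on BM-Treg replicate 4, where 0.251 CPM amounts to 3 counts. Tgm2 was thus near the detection limit in that library, and the size of its fold change is uncertain. Over the alternatives the log2 fold change ran from -5.03 to -1.44. Adam17, the protease that sheds amphiregulin, had a log2 fold change of -0.17 (edgeR adjusted p = 0.403) and Adam10 one of -0.28 (edgeR adjusted p = 0.229). Cpe and Pcsk1, which trim proenkephalin into peptides, were low, with means of 1.13 and 0.978 CPM in BM-Treg against 2.64 and 1.32 CPM in SP-Treg.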

How the data were processed

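RNA of 4 BM-Treg and 4 SP-Treg libraries, each from at least 100000 sorted cells, was SPIA-amplified and sequenced as single-end reads of 80 nt. The submitters' processing notes name cutadapt 1.9, STAR 2.5.2a, RSEM 1.2.30 and GRCm38, and the annotation is not given in the sources used here. The authors deposited expected counts (estimated reads per gene and transcript, not normalized between libraries) and FPKM values (scaled by length and depth).

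Expected counts were rounded, filtered with edgeR's default filter, normalized by TMM and tested with edgeR 4.0.16 (quasi-likelihood, robust, no covariate) in R 4.3.3, with BH adjustment over all tested genes and a threshold of 0.05. CPM use TMM library sizes, and log2 CPM a prior count of 2. Intervals of fold changes are 95% intervals. The scripts were tested on simulated data. Alternatives used DESeq2 1.42.0, limma 3.58.1, other filters and scalings, a batch term, a replicate block and each library left out in turn. No pair of libraries was a duplicate (chi-square per degree of freedom at least 14.6). The methods call the libraries of a tissue biological replicates. Amplified reads without molecular identifiers are not independent molecules, so the floors of counts cover counting error only.

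All 8 genes are named with each library. From each list up to 4 called genes of largest change are named, and where fewer than 2 were called also the 2 of highest mean CPM; receptors, partner chains and paralogs may be named beside a gene. Transcripts are given from a mean of 100 counts and a share of 5%. Maf, Prdm1, Tgfb1, Cpe and Pcsk1 were named after their values had been seen, and called genes past the 4 of a list are counted without values. The genes and lists were chosen with earlier results of these data known. Motifs, and marker values beside a result, were chosen after the values had been seen.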

Additional observations from a re-analysis of the deposited data

Results flagged for a closer look

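In groups of 4 libraries, a library was marked where its gap to the nearest other library took up most of the range of its group (Dixon's test at the 95% level, 16 groups tested, of which chance marks about 1 in 20). Ebi3 in SP-Treg replicate 4 was marked, at 29.2 CPM against 19.0 to 19.7 CPM in the other SP-Treg. Lgals1 in SP-Treg replicate 4 was marked as well, at 63.5 CPM against 48.7 to 50.8 CPM. Lgals1 in BM-Treg replicate 4, at 107.6 CPM, and Ebi3 in BM-Treg replicate 1, at 14.1 CPM, fell just short of the critical value.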

How the results depend on the processing

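The number of genes called, 1172 (499 higher and 673 lower in BM-Treg), was 765 (482 and 283) on log2(FPKM + 1), 728 (454 and 274) on log2(FPKM + 0.1), 427 at an adjusted p threshold of 0.01, 258 with a batch term, 79 in batch 3 alone with a test (added after seeing the data) and 690 to 1048 with 1 library left out, the lowest without BM-Treg replicate 2. Of the 8 genes, 3 were called, and 1 without a filter beyond 1 count in total, with a batch term or at a threshold of 0.01; with 1 library left out the number was 1 to 3, and it was 1 without BM-Treg replicate 1, 2 or 4. Without the filter Penk (edgeR adjusted p = 0.125) and Lif (0.0955) lost their calls. Of the named list genes, Batf, Dusp1, Fosb, Itgae, Junb and Pgk1 lost theirs without the filter (adjusted p of 0.0538 to 0.117), Batf, Il10ra, Il6st, Itgae, Jund, Pgk1 and Ptprc on both FPKM scales (0.0588 to 0.135), Batf with DESeq2's size factors (0.0528) and Jund with limma-voom (0.0561). With a batch term the 1 call was Lgals1. Of the genes in the 8 lists, 116 were tested and 30 called, against 1172 of 13397 over all genes. The lists had 10 calls with a batch term (all genes 258) and 14 at 0.01 (all genes 427). With 1 library left out they had 20 to 26 calls (all genes 690 to 1048). The sign turned for Ebi3 with a batch term (0.0058) and in batch 3 alone (0.025), for Areg in both (0.20 and 0.22), for Ebi3 without BM-Treg replicate 1 (0.075) or SP-Treg replicate 4 (0.078, of -0.17 to 0.078 over the libraries left out) and for Il10 without SP-Treg replicate 3 (0.0038, of -0.60 to 0.0038). The causes were not tested. DESeq2's size factors, DESeq2, limma-voom, both FPKM scales, at least 10 counts in every library and no mitochondrial genes (added after seeing the data) kept the calls of Fgl2, Penk and Lif.

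Deviations of libraries with the same replicate number correlated at -0.11, 0.06, -0.18 and 0.04 for replicates 1 to 4. The same number was the best match for replicates 2 and 4 and not for 1 and 3. These values do not decide whether the samples are paired, and the main test used no block. With the number as a replicate block 948 genes, 2 of the 8 genes (Fgl2 and Lif, with Penk at an edgeR adjusted p of 0.0706) and 28 list genes were called, and Batf, Il10ra, Itgae and Jund were not (adjusted p of 0.0673 to 0.0979).

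A batch with 1 BM-Treg library and 6 to 17 Vegfa counts per tissue limit what these data can resolve. The order of the 8 genes by CPM matched that by FPKM at 3 ranks for BM-Treg and at 2 for SP-Treg, as CPM does not divide by length.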
